A study of Mus musculus with 77 samples.

Results

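Glycolysis is the chain of enzymes that turns glucose into pyruvate, and lactate dehydrogenase and its partners then decide whether pyruvate becomes lactate or enters the mitochondria. Many of its genes, with others that act in iron, matrix and mitochondrial turnover, are switched on in low oxygen by the hypoxia-inducible factors (HIF), which prolyl hydroxylases and the von Hippel-Lindau protein otherwise mark for destruction when oxygen is present. The lung before weaning is still building alveoli and vessels and depends on HIF activity for this, and raised oxygen in newborn mice is a model of the arrested alveolar growth of preterm infants. A set of 38 genes, named as a list, covers glycolysis and hypoxia-regulated genes, and all 38 were found by symbol among the 24940 genes of each expression table. The question was whether excess oxygen lowers them, in lung and in cultured macrophages.

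The lungs came from pups raised to day 14 in room air or in 75% oxygen (hyperoxia), the exposure starting within a day of birth. Mice were C57BL/6J (B6), a Trem2 knockout strain (KO) or DBA/2J (DBA). Lungs were perfused to clear blood, and poly(A) RNA was taken from whole tissue, which gave 7 B6 libraries (4 in room air, 3 in hyperoxia) and 8 each of KO and DBA (4 per gas). A second B6 set held 2 room-air and 3 hyperoxia libraries. Bone-marrow-derived macrophages (BMDM) of the 3 genotypes were kept for 24 h in either gas, with 2 libraries in each of the 6 groups. The labels give no oxygen level for the cultures, and the column names carry the number 95 after "invitro" for both gases. B6 lungs of the main tables came from both sexes per the column names, and all KO, DBA and second-set lungs from males. Whether animals were pooled and whether replicates are separate animals or cultures is not stated in the labels, so p-values measure the spread between these libraries, which may be technical in part.

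Values are TPM, a transcript abundance scaled for transcript length and library total, so levels can be set side by side between genes. Differences are given as log2 fold change (log2FC) of log2(TPM + 1) with its standard error (SE), which understates the change of genes at low TPM. A gene was called at adjusted p < 0.05 in limma, over all genes tested in a comparison. Estimated depth was 12.5 to 41.1 M (mega) reads in the main lung tables, 7.07 to 8.03 M in the second B6 set and 14.6 to 46.9 M in BMDM. The same 7 B6 lung libraries served as the controls of both KO and DBA. Trem2 was at 2.14 to 9.85 TPM in the main B6 lungs and 1.05 to 2.75 TPM in KO lungs, ranges that overlapped, and at 908 to 962 TPM in B6 BMDM against 236 to 252 TPM in KO BMDM.

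Markers of other cells moved with the exposures. Summed over 10 erythroid markers, the level was 597 to 10499 TPM in B6 room-air lungs and 1192 to 2963 TPM in B6 hyperoxia lungs. It was 8685 to 10159 and 4419 to 5647 TPM in KO, and 44495 to 117050 and 69156 to 93053 TPM in the second B6 set. In DBA lungs it was 10331 to 38331 and 4263 to 15321 TPM. Macrophage marker sums were lower in every hyperoxia lung of B6 (2633 to 5184 against 1824 to 2114 TPM). They were lower in KO (5025 to 6505 against 2831 to 3596 TPM) and the second set (5279 to 5855 against 2935 to 3665 TPM). In DBA lungs the groups overlapped, at 689 to 1108 and 865 to 2187 TPM. In the second set Lyz2 made up most of the sum, at 5756 and 5184 TPM against 2817 to 3534 TPM. Cd68 (29.4 and 31.3 against 45.0 to 61.3 TPM) and Marco (2.62 and 4.70 against 7.55 to 14.3 TPM) were higher there. Csf1r was lower (26.1 and 27.7 against 21.3 to 24.9 TPM), and the other macrophage markers overlapped. Whether the macrophage sums of the first B6, KO and DBA lungs also rest mostly on Lyz2 is not given here. T and B cell sums were 48.6 to 72.3 and 14.3 to 21.8 TPM in B6 lungs, 44.8 to 73.6 and 23.4 to 37.7 TPM in KO lungs, and 72.0 to 85.4 and 36.1 to 47.5 TPM in the second set. In DBA lungs these sums overlapped, at 17.8 to 24.7 and 14.4 to 24.2 TPM. Endothelium sums were 1969 to 2147 and 1559 to 1674 TPM in B6 lungs and 1988 to 2221 and 1521 to 1885 TPM in KO lungs. They were 1367 to 1588 and 1038 to 1165 TPM in the second set, and overlapped in DBA lungs (1883 to 2529 and 1632 to 2282 TPM). Proliferation sums were higher in every hyperoxia lung of DBA (20.9 to 32.7 against 67.3 to 106.6 TPM), KO (55.2 to 75.9 against 83.8 to 115.5 TPM) and the second set (26.5 to 28.0 against 45.7 to 58.8 TPM). In the first B6 lungs they overlapped, at 71.8 to 100.5 and 94.6 to 107.4 TPM. They were lower in hyperoxia in B6 BMDM (75.1 to 113.3 against 13.5 to 18.9 TPM), KO BMDM (18.1 to 18.7 against 8.33 to 9.39 TPM) and DBA BMDM (24.0 to 25.5 against 8.07 TPM in both). Of 7 cardiac and striated muscle markers tested, 5 rose in B6 lungs and none in KO or DBA lungs. Of all genes tested, 16.6%, 10.6% and 18.6% rose in B6, KO and DBA lungs. The B6 sums over all 8 muscle markers overlapped, reaching 72.9 TPM in room air and 57.8 to 191.5 TPM in hyperoxia. These sums also overlapped in KO lungs (45.9 to 330.6 and 36.1 to 174.9 TPM) and DBA lungs (72.3 to 429.97 and 42.5 to 312.7 TPM). Alveolar type 2 markers rose in DBA hyperoxia lungs in 6 of 7 cases, from a sum of 7202 to 12087 TPM to 13199 to 25946 TPM. In bulk tissue, fewer cells of a type and less RNA per cell cannot be told apart, and the part of these markers in the results below was not tested.

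Members were called in both directions in every exposure except the second B6 set, where 1 rose and 0 fell. In B6 lungs 5 of the 38 fell and 11 rose, where 26% of all genes tested fell and 16.6% rose (42.7% in either direction). In KO lungs 3 fell and 9 rose, against a background of 9.11% and 10.6% (19.7% in either direction). With date code as a term the KO lungs had 5 lower and 5 higher, and within the later KO date code 5 and 4. In DBA lungs 4 fell and 6 rose, against 12.4% and 18.6% (31% in either direction), and with quantile normalization 6 fell and 5 rose. In the second B6 set no member fell and Aldoa rose, out of 37 tested, against 1.81% and 3.13%. That count of 0 came from limma, with 11 members at an unadjusted p under 0.05 in either direction, and a call was made there for 4.94% of all genes.

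In B6 BMDM 4 members fell and 13 rose, while 22.8% of all genes tested fell and 5.68% rose (28.5% in either direction). That count fell to 2 lower and 3 higher when the B6 groups were fitted alone, to 5 higher without B6 room-air library 1 and to 7 higher without B6 hyperoxia library 1. In KO BMDM 6 fell and 8 rose, against 16.4% and 6.88% (23.3%), with 5 higher when KO room-air library 2 was left out. In DBA BMDM 7 fell and 3 rose, against 13% and 5.73% (18.8%). Without DBA room-air library 2, hyperoxia library 1 or hyperoxia library 2, 4 fell in each case and 1, 0 and 1 rose. The median log2FC of all genes in B6 BMDM was -0.13 and became 0.01 after quantile normalization, which left 2 members lower and 17 higher. With the same normalization the counts were 4 lower and 10 higher in KO BMDM, and 6 lower and 5 higher in DBA BMDM. The median log2FC of the members was 0.02 in B6 lung, 0.10 in KO lung, 0.14 in DBA lung, -0.04 in the second B6 set, and 0.22, -0.03 and -0.07 in B6, KO and DBA BMDM. All genes tested had medians of -0.07, 0.01, 0.05 and 0.01 in the lung comparisons and -0.13, -0.08 and -0.06 in the cultures.

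**Figure D1:**
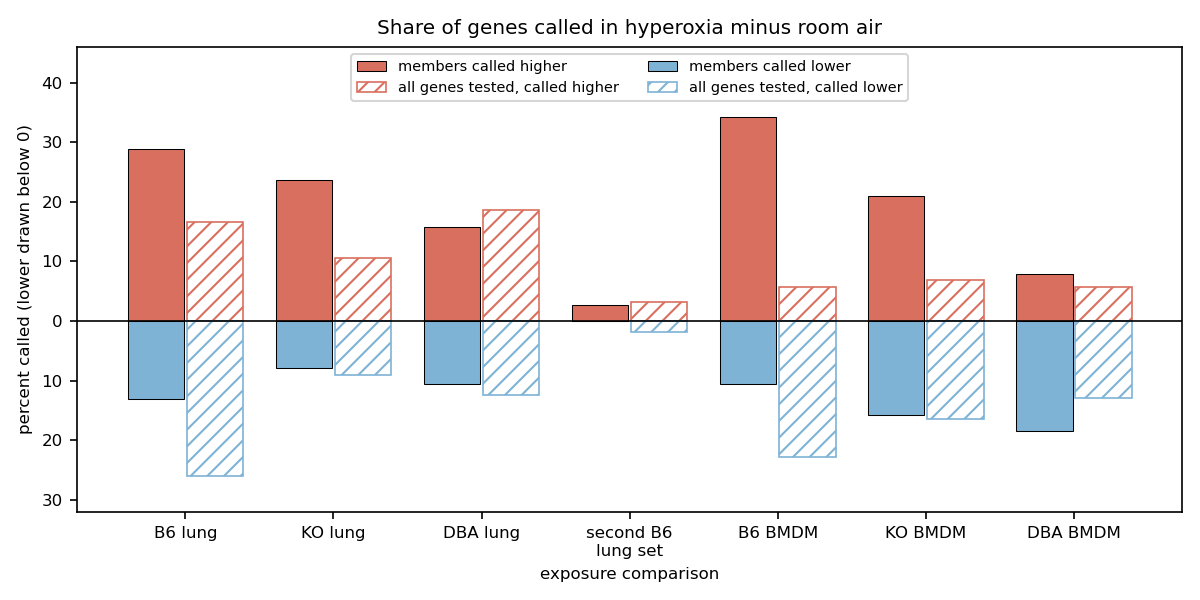
Share of the member genes (filled bars) and of all genes tested (hatched bars) called higher (above 0) or lower (below 0) in hyperoxia than in room air at adjusted p < 0.05, in percent, for 7 exposure comparisons. In every comparison but DBA BMDM (3 higher and 7 lower) the members were called higher more often than lower. The counts were 13 and 4 in B6 BMDM, 6 and 4 in DBA lung, and 1 and 0 in the second B6 set. With date code as a term KO lung had 5 and 5, and with quantile normalization DBA lung had 5 and 6.

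No member was called lower in 3 or more of the 4 lung comparisons, and 1 member, Pkm, was called higher in 3 of them. In BMDM, 3 members fell in all 3 genotypes (Txnip, Arrdc4 and Pfkfb4) and 3 rose in all 3 (Aldoa, Eno2 and Pkm). None was called in the same direction in all 7 comparisons. Slc2a3, Pfkp, Aldoc, Gapdh, Egln1 and Car9 were called in none. Of all genes tested, 22.8%, 16.4% and 13% fell and 5.68%, 6.88% and 5.73% rose in B6, KO and DBA BMDM. The share of all genes called alike across several comparisons is not given, so the counts of shared calls have no background beside them.

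**Figure D2:**
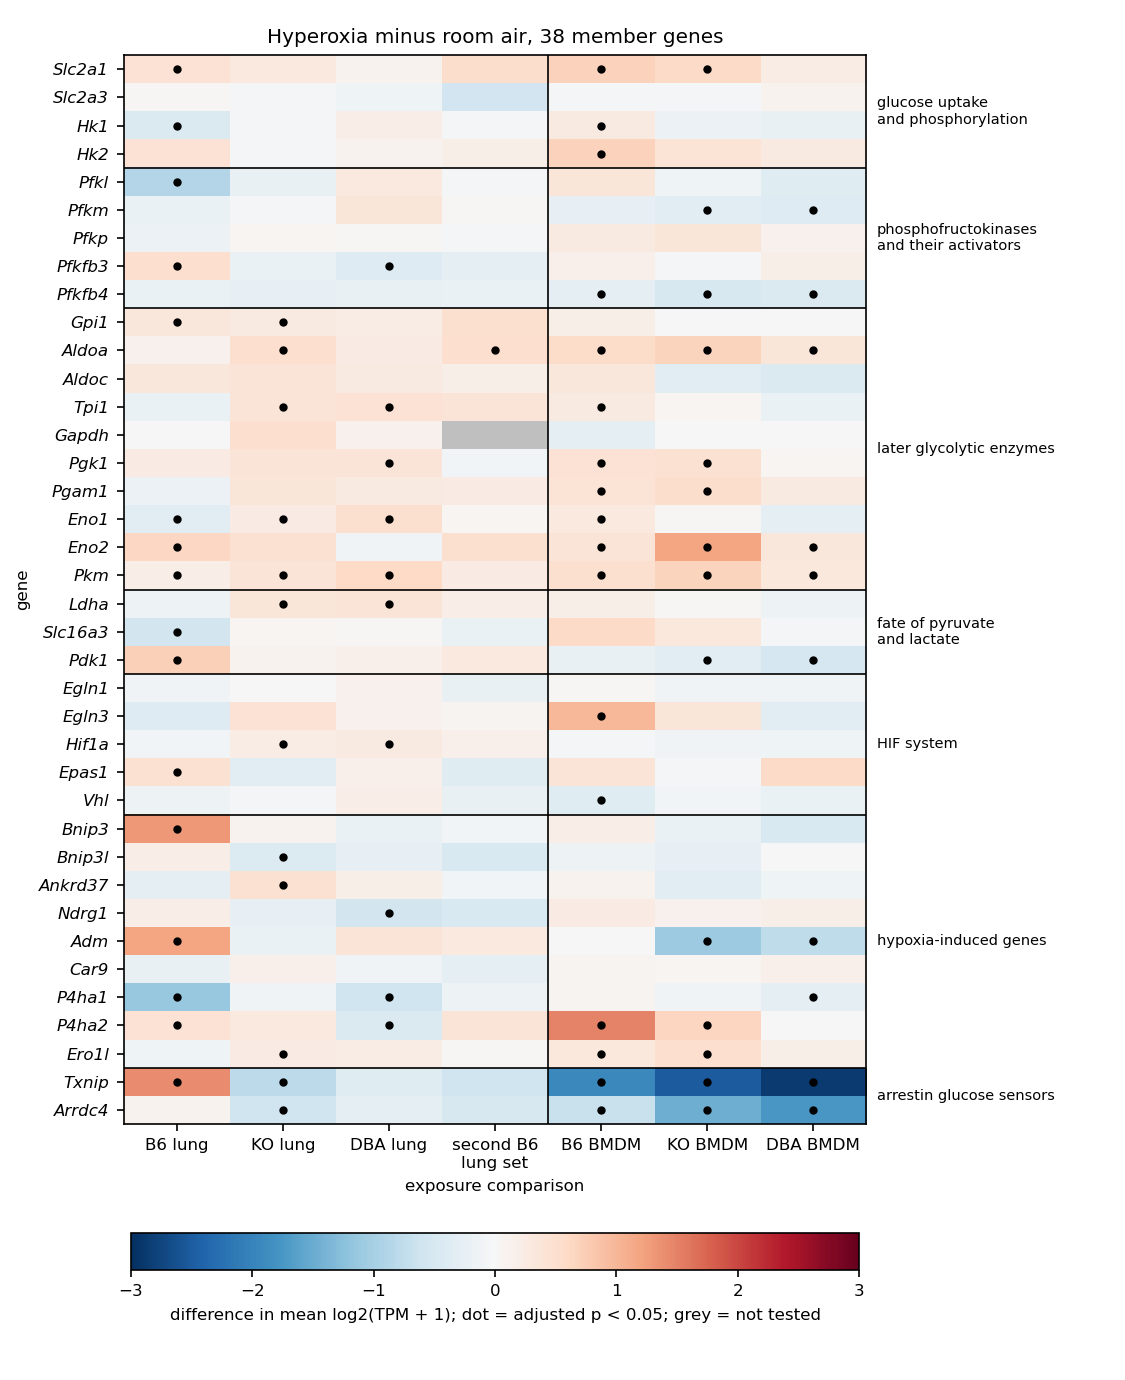
Difference in mean log2(TPM + 1) between hyperoxia and room air for the 38 genes (rows, grouped by role) in 7 exposure comparisons (columns), with a dot where adjusted p < 0.05. Txnip stands out, at 1.43 in B6 lung and -1.93 to -2.87 in the 3 BMDM genotypes, and the later glycolytic enzymes are mostly red in KO and DBA lung and in B6 BMDM.

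Txnip and Arrdc4 encode alpha-arrestins that hold back glucose uptake, and both genes are switched on by the glucose-sensing factors MondoA and ChREBP with their partner Mlx. These factors bind a carbohydrate response element, a pair of E-box-like sites set a short distance apart. Txnip lies at chr3:96557957-96561857 on the plus strand and Arrdc4 at chr7:68736994-68749238 on the minus strand of mm10. Because Txnip gave the largest fall of any member in each culture and Arrdc4 the next largest, their promoters are printed, as RefSeq gives them on mm10, from 250 bases before to 50 bases after the start site. In Txnip (chr3:96557707-96558006, plus strand) the capitals mark the match to CACGNG, any 5 bases and CACGNG again, and in Arrdc4 (chr7:68749189-68749488, minus strand) a CACGTG.
Txnip: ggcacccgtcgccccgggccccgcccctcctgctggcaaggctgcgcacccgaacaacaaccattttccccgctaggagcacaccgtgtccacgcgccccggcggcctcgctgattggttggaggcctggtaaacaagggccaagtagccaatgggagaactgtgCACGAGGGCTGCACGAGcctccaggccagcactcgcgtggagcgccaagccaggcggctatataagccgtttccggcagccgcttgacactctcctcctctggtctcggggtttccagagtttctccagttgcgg
Arrdc4: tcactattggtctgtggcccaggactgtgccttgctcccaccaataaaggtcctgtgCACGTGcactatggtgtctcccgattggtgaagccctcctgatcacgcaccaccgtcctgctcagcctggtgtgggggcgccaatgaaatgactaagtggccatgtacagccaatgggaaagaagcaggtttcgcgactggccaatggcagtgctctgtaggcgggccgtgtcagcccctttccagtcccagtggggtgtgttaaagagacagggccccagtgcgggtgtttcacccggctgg
The Txnip match begins 85 bases before the start site. Searched on both strands, this paired motif was present in 16 of the 32851 RefSeq promoters of this length (0.0487%), and Txnip was the only one of 34 members with a promoter in the table that held it. CACGTG was present in 7.15% of all promoters and in 5 of the 34 members (Pfkfb3, Ldha, Bnip3, Hif1a and Arrdc4). A match of letters is a description and not evidence of binding.

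Txnip was among the most abundant members in BMDM in room air and fell in every genotype under hyperoxia. In B6 cultures the room-air libraries stood at 427 and 367 TPM and the hyperoxia libraries at 121 and 88.5 TPM. In KO BMDM it was at 525 and 591 TPM against 95.6 and 101 TPM. In DBA BMDM it was at 660 and 677 TPM against 91.1 and 90.6 TPM. The groups did not overlap in any genotype, and the hyperoxia libraries of all 3 lay close together while the room-air libraries differed. The log2FC was -1.93 (SE 0.13, adjusted p = 2.87e-05) in B6, -2.49 (adjusted p = 9.59e-06) in KO and -2.87 (adjusted p = 7.92e-06) in DBA, from limma with n = 2 against 2.

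Arrdc4 fell with it at a far lower level. In B6 BMDM its room-air values were 7.30 and 8.28 TPM and its hyperoxia values 4.39 and 4.65 TPM, a log2FC of -0.67 (SE 0.13, adjusted p = 0.0042 in limma). In KO it went from 13.8 and 13.0 TPM to 3.82 and 4.72 TPM, and in DBA from 9.92 and 12.0 TPM to 2.31 and 2.80 TPM, with log2FC of -1.46 and -1.75. The fall was larger in DBA than in B6 BMDM by -1.08 for Arrdc4 (adjusted p = 0.0364) and by -0.94 for Txnip (adjusted p = 0.0482), by limma's test of the difference. Both of those differences lost their call with a pseudocount of 0.1 (adjusted p = 0.053 and 0.069) and when any of several single libraries was left out. The falls themselves were called under every alternative and with each library left out, in all 3 genotypes.

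Txnip behaved otherwise in lung, where the first B6 set stood alone. In those B6 lungs it was at 297 to 361 TPM in room air (361, 360, 310 and 297) and at 865, 959 and 854 TPM in hyperoxia, so that the groups were far apart. The log2FC was 1.43 (SE 0.15, adjusted p = 3.72e-06 in limma), and within the 5 libraries that share the earliest date code in their column names it was 1.30 (adjusted p = 0.000167). In KO lungs it was at 384, 322, 533 and 503 TPM in room air and at 218, 253, 232 and 292 TPM in hyperoxia, which was a fall (log2FC -0.79, SE 0.14, adjusted p = 0.00147 in limma). Within the later KO date code, which holds 2 room-air and all 4 hyperoxia libraries, the value was -1.06. The second B6 set had room-air values of 416 and 388 TPM and hyperoxia values of 218, 262 and 331 TPM. The groups of that set did not overlap, with log2FC -0.59 and adjusted p = 0.0895, in the direction opposite to the first B6 set. In DBA lungs the groups overlapped, at 327 to 475 TPM in room air and 237 to 398 TPM in hyperoxia, with log2FC -0.38 (adjusted p = 0.0672). Over the 2 libraries per group of the later DBA date code it was -0.66 (adjusted p = 0.0139) and over those of the earlier one it was -0.09.

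The lung response of Txnip was lower in KO than in B6 by 2.21 on the log2 scale (a difference of -2.21, adjusted p = 7.4e-06) and in DBA than in B6 by a difference of -1.80 (adjusted p = 0.000106), by limma's interaction tests. Both tests use the same B6 lungs. All 3 B6 hyperoxia libraries carry the earliest date code, which no KO or DBA library carries, so this date code and the B6 response cannot be told apart in these tests. Arrdc4 was at 18.6 to 25.4 TPM in B6 room-air lungs and at 20.7 to 29.1 TPM in hyperoxia, overlapping groups with log2FC 0.10 (adjusted p = 0.554). In KO lungs it fell from 16.9 to 22.4 TPM to 12.1 to 13.4 TPM (log2FC -0.59, adjusted p = 0.00254).

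**Figure D3:**
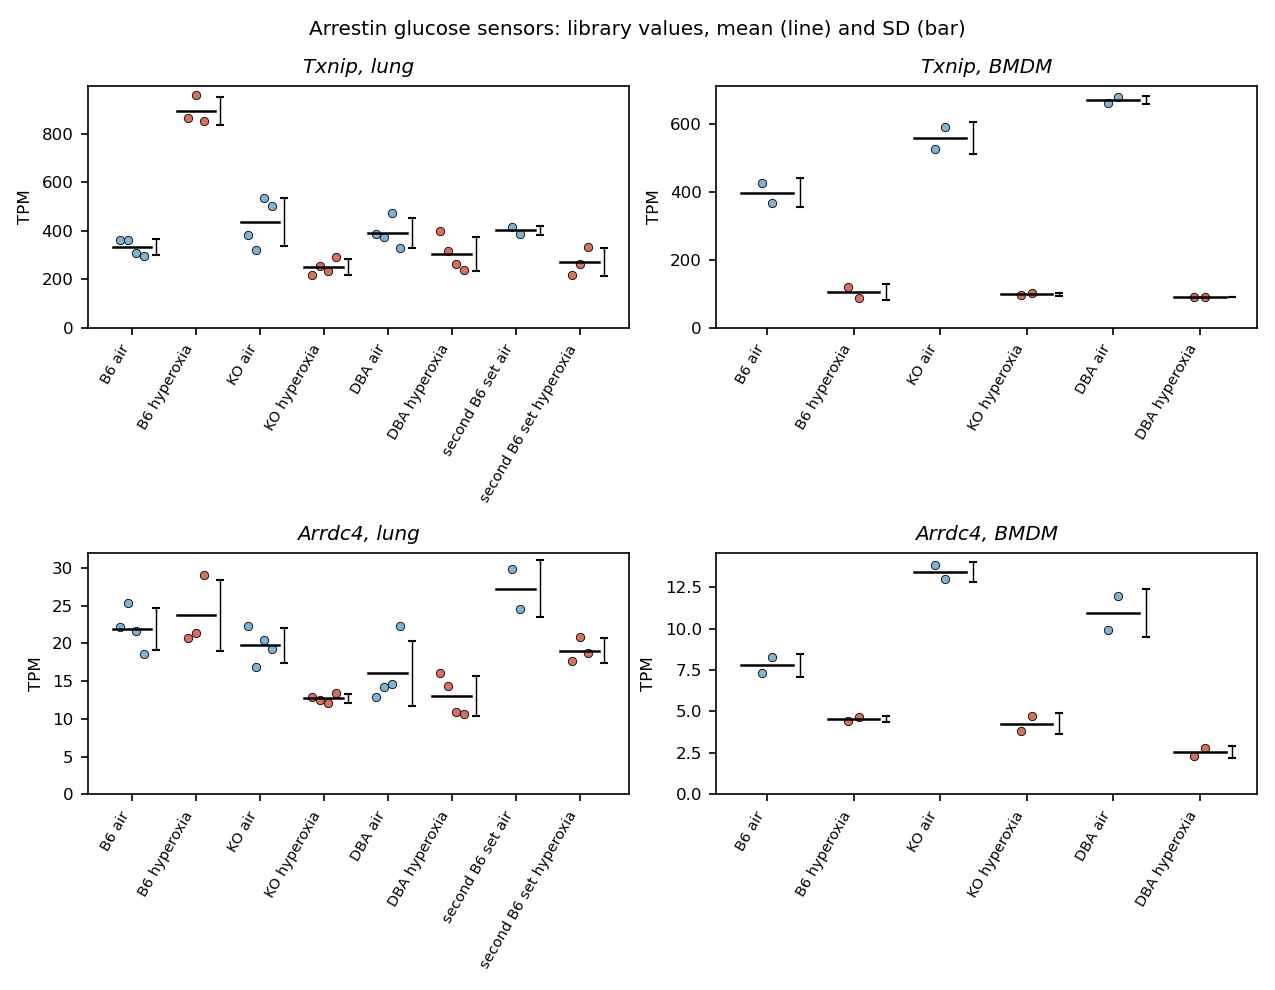
TPM of Txnip and Arrdc4 in each library (points; blue, room air, and red, hyperoxia) with group mean (line) and SD (bar), in lung (left) and BMDM (right). Txnip in hyperoxia sits at 854 to 959 TPM in the first B6 lungs and at 218 to 398 TPM in the other lungs, and at 88.5 to 121 TPM in all BMDM.

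Glucose enters cells through transporters such as Slc2a1 (GLUT1) and Slc2a3 (GLUT3) and is trapped by hexokinases Hk1 and Hk2. Slc2a1 rose in B6 BMDM from 31.1 and 31.7 TPM to 54.5 and 47.4 TPM (log2FC 0.68, SE 0.08, adjusted p = 0.000325 in limma) and in KO BMDM from 16.7 and 15.3 TPM to 24.7 and 24.1 TPM (log2FC 0.58). In DBA BMDM it was at 20.7 and 20.0 TPM against 24.5 and 23.8 TPM, groups that did not overlap but were not called (log2FC 0.23, adjusted p = 0.058). In B6 lungs it rose from 6.67 to 7.58 TPM to 8.58 to 11.3 TPM (log2FC 0.43, adjusted p = 0.0255), and within 1 date code the log2FC was 0.48 without a call (adjusted p = 0.0552). Hk2 rose in B6 BMDM (log2FC 0.70), from 9.46 and 13.0 TPM to 16.0 and 21.7 TPM, and in KO and DBA BMDM had log2FC of 0.42 and 0.26 that were not called. Hk1 fell in B6 lungs (log2FC -0.44) and rose in B6 BMDM (log2FC 0.27). In lung, 1 hyperoxia library was at 12.8 TPM and the other B6 lungs were at 22.7 to 28.0 TPM, and without that library the log2FC was -0.18 (adjusted p = 0.15). Slc2a3 was between 1.77 and 6.92 TPM in all libraries.

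Phosphofructokinase (Pfkl, Pfkm and Pfkp) catalyses the committed step of glycolysis, and the bifunctional enzymes Pfkfb3 and Pfkfb4 make its activator fructose 2,6-bisphosphate. Pfkl, the liver-type subunit, was at 16.7 to 20.0 TPM in B6 room-air lungs and at 9.21, 12.1 and 7.98 TPM in hyperoxia, a fall of -0.88 (SE 0.12, adjusted p = 2.8e-05 in limma) that was as large within 1 date code (-0.90). Pfkl groups overlapped in KO and DBA lungs (log2FC -0.22 and 0.28, not called), and both responses differed from that in B6 (differences 0.66 and 1.16). Pfkfb3 rose in B6 lungs, from 30.5 to 35.2 TPM to 46.1 to 50.0 TPM (log2FC 0.50, adjusted p = 0.000267), and fell in DBA lungs, from 36.2 to 41.7 TPM to 23.8 to 32.3 TPM (log2FC -0.40, adjusted p = 0.00426). In the second B6 set Pfkfb3 stood at 21.1 and 21.3 TPM without added oxygen and at 15.8 to 18.5 TPM in hyperoxia (log2FC -0.30, adjusted p = 0.219). Pfkfb4 fell in all BMDM genotypes, with log2FC of -0.28, -0.49 and -0.44 in B6, KO and DBA, and the B6 call was lost with quantile normalization (log2FC -0.12, adjusted p = 0.471). Pfkm fell in KO and DBA BMDM (log2FC -0.34 and -0.39), calls that were lost with quantile normalization as well (adjusted p = 0.124 and 0.0718).

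The 10 later enzymes, from Gpi1 to Pkm, rose more often than they fell. In KO lungs 5 rose (Gpi1, Aldoa, Tpi1, Eno1 and Pkm) and none fell, where 10.6% and 9.11% of all genes did. In DBA lungs 4 rose (Tpi1, Pgk1, Eno1 and Pkm) and none fell, against 18.6% and 12.4%. In B6 lungs 3 rose (Gpi1, Eno2 and Pkm) and Eno1 fell, against 16.6% and 26%. With males only, all 3 rises lost their call (adjusted p = 0.054, 0.203 and 0.121 in limma). The Eno2 call was also lost with date code as a term (log2FC 0.39, adjusted p = 0.245). In BMDM 7 rose in B6, 5 in KO and 3 in DBA, against 5.68%, 6.88% and 5.73% of all genes, and none fell, against 22.8%, 16.4% and 13%. Their median log2FC was 0.16, 0.38 and 0.27 in B6, KO and DBA lungs, 0.25 in the second B6 set, and 0.37, 0.26 and 0.03 in B6, KO and DBA BMDM.

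Pkm, pyruvate kinase, which makes pyruvate in the last step, was at 150 to 159 TPM in B6 room-air lungs and at 186, 188 and 159 TPM in hyperoxia, with 1 hyperoxia library barely above the room-air range (log2FC 0.20, SE 0.07, adjusted p = 0.0258 in limma). The B6 call was lost with quantile normalization (adjusted p = 0.175) and when either hyperoxia library at the higher level was left out (adjusted p = 0.105 and 0.113). In KO lungs the groups were well apart, at 143 to 158 and 191 to 200.4 TPM (log2FC 0.38, adjusted p = 0.000708), as they were in DBA lungs, at 95.6 to 131 and 152 to 187 TPM (log2FC 0.60, adjusted p = 0.00041). In BMDM Pkm rose from 754 and 715 TPM to 1136 and 920 TPM in B6, from 361 and 329 TPM to 555 and 542 TPM in KO, and from 444 and 411 TPM to 535 and 530 TPM in DBA (log2FC 0.48, 0.67 and 0.32).

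Aldoa, the main aldolase, rose in BMDM of all genotypes, from 818 and 876 TPM to 1304 and 1175 TPM in B6 (log2FC 0.55, adjusted p = 0.000703), from 559 and 537 TPM to 887 and 855 TPM in KO (0.67) and from 704 and 651 TPM to 897 and 841 TPM in DBA (0.36). It was the single member called in the second B6 lung set, with both room-air libraries at 203 TPM and hyperoxia libraries of 281, 283 and 295 TPM (log2FC 0.49, adjusted p = 0.043), and that call was lost when any 1 library was left out. Aldoa also rose in KO lungs (log2FC 0.51), and in B6 lungs of the first set it was at 166 to 188 TPM in room air and 159 to 216 TPM in hyperoxia, with 1 hyperoxia library lowest of all 7. Eno2, the neuronal enolase, was low in lung (0.38 to 4.10 TPM) and rose in KO BMDM from 4.02 and 3.93 TPM to 9.76 and 10.7 TPM (log2FC 1.17, SE 0.09, adjusted p = 6.72e-05). This response was larger than that of B6 BMDM (difference 0.79, adjusted p = 0.0285), a difference not called with a pseudocount of 0.1 (adjusted p = 0.0501).

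Eno1, the common enolase, fell in B6 lungs from 44.6 to 48.5 TPM to 35.4 to 37.3 TPM (log2FC -0.34, SE 0.07, adjusted p = 0.00177 in limma) and rose in DBA lungs from 18.7 to 24.6 TPM to 26.0 to 33.2 TPM (log2FC 0.48, adjusted p = 0.00133). Tpi1, triosephosphate isomerase, was at 70.1 to 77.6 TPM in B6 room-air lungs and 57.1 to 72.2 TPM in hyperoxia (log2FC -0.19, not called), and rose in KO (log2FC 0.39) and DBA lungs (log2FC 0.44). Gapdh was listed at 0 to 1.95 TPM in lung and 1.38 to 3.07 TPM in BMDM, and Pgk1 and Pgam1 at 2.98 to 12.4 TPM in lung, below Gpi1, Aldoa, Tpi1, Eno1 and Pkm and mostly above Aldoc and Eno2. RefSeq names 3 pseudogenes of Gapdh, 3 of Pgk1, 2 of Pgam1, 3 of Ldha, 2 of Aldoa, 7 of Tpi1, 1 of Bnip3l and 1 of Vhl, and the counting of reads that match several copies is not stated in the labels. The levels and changes of these 8 genes are therefore uncertain, and Gapdh, which was called in no exposure, is counted in the medians of the later enzymes.

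Lactate dehydrogenase A (Ldha) makes lactate, Slc16a3 (MCT4) exports it, and pyruvate dehydrogenase kinase Pdk1 keeps pyruvate out of the mitochondria. Ldha rose in KO lungs from 189 to 215 TPM to 248 to 277 TPM (log2FC 0.36, SE 0.08, adjusted p = 0.00477 in limma) and in DBA lungs from 153 to 189 TPM to 211 to 228 TPM (log2FC 0.38, adjusted p = 0.00474). In B6 lungs it was at 184 to 217 TPM in room air and 162 to 196 TPM in hyperoxia (log2FC -0.16, adjusted p = 0.136), and both other responses differed from it (0.52 in KO and 0.54 in DBA). No BMDM genotype changed in Ldha by the test. Pdk1 rose in B6 lungs from 9.29 to 11.2 TPM to 16.5 to 19.5 TPM (log2FC 0.72, adjusted p = 2.73e-05) and fell in KO and DBA BMDM (log2FC -0.32 and -0.51), to 9.07 and 8.92 TPM and to 9.05 and 9.05 TPM. Slc16a3 fell in B6 lungs to 1.46 to 2.06 TPM from 2.45 to 3.66 TPM (log2FC -0.54), and with males only it was -0.70 without a call (adjusted p = 0.0686).

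The main control of the HIF system is known to act on the protein, and only its RNA is described here. Hif1a, the oxygen-labile subunit, rose in KO lungs from 45.6 to 49.3 TPM to 55.2 to 57.2 TPM (log2FC 0.22, SE 0.05, adjusted p = 0.0086 in limma) and in DBA lungs (log2FC 0.27). In B6 lungs its groups overlapped, at 49.2 to 53.02 and 46.8 to 50.4 TPM. Epas1, which encodes HIF-2 alpha and is rich in endothelium, was among the most abundant members in lung, at 206 to 831 TPM. It rose in B6 lungs (log2FC 0.45, adjusted p = 0.0191), but within 1 date code it was 0.24 (adjusted p = 0.225). Endothelium marker sums were lower in these hyperoxia lungs (1969 to 2147 against 1559 to 1674 TPM), and their part in Epas1 was not tested. Egln3, a prolyl hydroxylase gene that HIF itself induces, rose in B6 BMDM from 0.62 and 0.61 TPM to 3.17 and 1.51 TPM (log2FC 1.01, adjusted p = 0.00618), with a wide gap between the hyperoxia libraries. Vhl fell in B6 BMDM from 12.5 and 12.2 TPM to 9.26 and 9.36 TPM (log2FC -0.37), and Egln1 was called in no exposure.

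Hypoxia-induced genes outside glycolysis moved in both directions within the same lungs. The promoters of a pair of them are shown, that of Bnip3, which gave the largest rise of these genes in B6 lungs, and that of P4ha2, which gave the largest in B6 BMDM. Capitals mark the core letters ACGTG or GCGTG, on either strand, that HIF is known to bind. Bnip3 is read from chr7:138909457-138909756 on the minus strand and P4ha2 from chr11:54100674-54100973 on the plus strand of mm10.
Bnip3: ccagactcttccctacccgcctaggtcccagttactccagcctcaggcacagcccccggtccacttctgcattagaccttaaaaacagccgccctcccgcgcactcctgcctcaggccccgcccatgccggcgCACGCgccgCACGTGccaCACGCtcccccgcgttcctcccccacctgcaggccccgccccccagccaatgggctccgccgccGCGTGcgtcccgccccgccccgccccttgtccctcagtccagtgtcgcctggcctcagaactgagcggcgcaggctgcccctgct
P4ha2: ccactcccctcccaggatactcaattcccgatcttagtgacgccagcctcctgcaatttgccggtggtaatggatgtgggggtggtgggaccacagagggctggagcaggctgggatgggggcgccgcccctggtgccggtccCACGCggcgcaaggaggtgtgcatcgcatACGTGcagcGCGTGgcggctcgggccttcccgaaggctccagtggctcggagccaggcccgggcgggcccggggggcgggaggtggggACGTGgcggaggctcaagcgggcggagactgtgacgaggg
Of the 34 members with a promoter in the RefSeq table, 29 (85.3%) held ACGTG or GCGTG, against 43.8% of all promoters. CACGTG contains ACGTG on both strands, so the searches overlap. Members of this list were chosen in part as known HIF targets, so the share describes the list.

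Bnip3, a mitophagy receptor gene, was at 20.0, 22.1, 24.0 and 25.6 TPM in B6 room-air lungs and at 48.7, 69.9 and 55.3 TPM in hyperoxia. The groups were far apart and the log2FC was 1.29 (SE 0.14, adjusted p = 3.38e-06 in limma), or 1.40 within 1 date code. In the other lungs the groups overlapped. They were at 21.5 to 31.1 and 25.7 to 32.4 TPM in KO, 24.0 to 42.2 and 23.3 to 29.5 TPM in DBA, and 20.4 to 24.9 and 19.7 to 22.6 TPM in the second B6 set. The responses of KO and DBA differed from that of B6 by -1.19 (adjusted p = 0.000325) and -1.49 (adjusted p = 0.000328). Its relative Bnip3l, which red-cell precursors use to clear mitochondria, fell in KO lungs from 69.0 to 83.2 TPM to 51.7 to 64.0 TPM (log2FC -0.40, adjusted p = 0.00794 in limma). The erythroid marker sum was also lower in every KO hyperoxia library than in every KO room-air library. In the second B6 set Bnip3l was at 121 and 134 TPM in room air and 84.6 to 102 TPM in hyperoxia, while the erythroid sums overlapped. The part of red cells in Bnip3l was not tested.

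Adm, the vasodilator peptide adrenomedullin, was at 16.6 to 19.4 TPM in B6 room-air lungs and at 44.6, 34.9 and 46.2 TPM in hyperoxia (log2FC 1.17, SE 0.13, adjusted p = 4.49e-06 in limma). KO and DBA lungs showed no called change, at 14.6 to 21.9 and 19.8 to 24.7 TPM in hyperoxia, and both responses differed from that of B6 (-1.37 and -0.79). In BMDM the gene was listed at 0 to 0.03 TPM in B6. In KO its room-air values were 5.88 and 4.68 TPM and its hyperoxia values 1.90 and 1.94 TPM, a fall of -1.10 (adjusted p = 0.00431). In DBA it was at 5.16 and 5.25 TPM and at 1.85 and 3.67 TPM, a fall of -0.77 (adjusted p = 0.0277) that was lost with a pseudocount of 0.1. Summed fibroblast markers fell in the same cultures, from 85.5 to 108 TPM to 24.2 to 31.7 TPM in KO and from 75.2 to 88.6 TPM to 29.3 to 32.8 TPM in DBA. In B6 BMDM that sum was 0.07 to 0.64 TPM, and its part in the Adm result was not tested.

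Collagen prolyl hydroxylase subunits gave opposite results in B6 lung. P4ha1 fell from 28.5, 29.5, 41.3 and 39.7 TPM to 15.3, 15.4 and 14.2 TPM (log2FC -1.14, SE 0.11, adjusted p = 2.29e-06 in limma), with no overlap, while P4ha2 rose from 8.52 to 12.3 TPM to 11.7 to 17.3 TPM (log2FC 0.45, adjusted p = 0.0108) with overlap. P4ha1 also fell in DBA lungs (log2FC -0.59, adjusted p = 0.0215), where it was -1.10 within the earlier date code and -0.08 within the later one. In KO lungs it was at 33.6 to 38.7 and 31.9 to 35.8 TPM. In B6 BMDM P4ha2 rose from 1.61 and 1.51 TPM to 7.83 and 4.88 TPM (log2FC 1.49, adjusted p = 0.000397) and in KO BMDM from 10.3 and 8.15 TPM to 14.5 and 15.3 TPM (log2FC 0.64). In DBA BMDM its room-air values were 8.35 and 7.54 TPM and its hyperoxia values 7.65 and 8.35 TPM, and this response differed from that in B6 (-1.48, adjusted p = 0.0364), with adjusted p = 0.0515 at a pseudocount of 0.1.

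The other hypoxia-induced genes changed in single comparisons or modestly. Ndrg1 fell in DBA lungs from 14.0 to 17.7 TPM to 9.21 to 11.1 TPM (log2FC -0.55, adjusted p = 0.00136). Ankrd37 rose in KO lungs (log2FC 0.47), and within 1 date code it was 0.46 without a call (adjusted p = 0.137). Ero1l, which drives disulphide formation in the endoplasmic reticulum, rose in KO lungs (log2FC 0.25) and in B6 and KO BMDM (0.31 and 0.51). Car9, a carbonic anhydrase widely used as a hypoxia marker, stayed at 0.67 to 4.71 TPM in all libraries and was called nowhere.

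**Figure D4:**
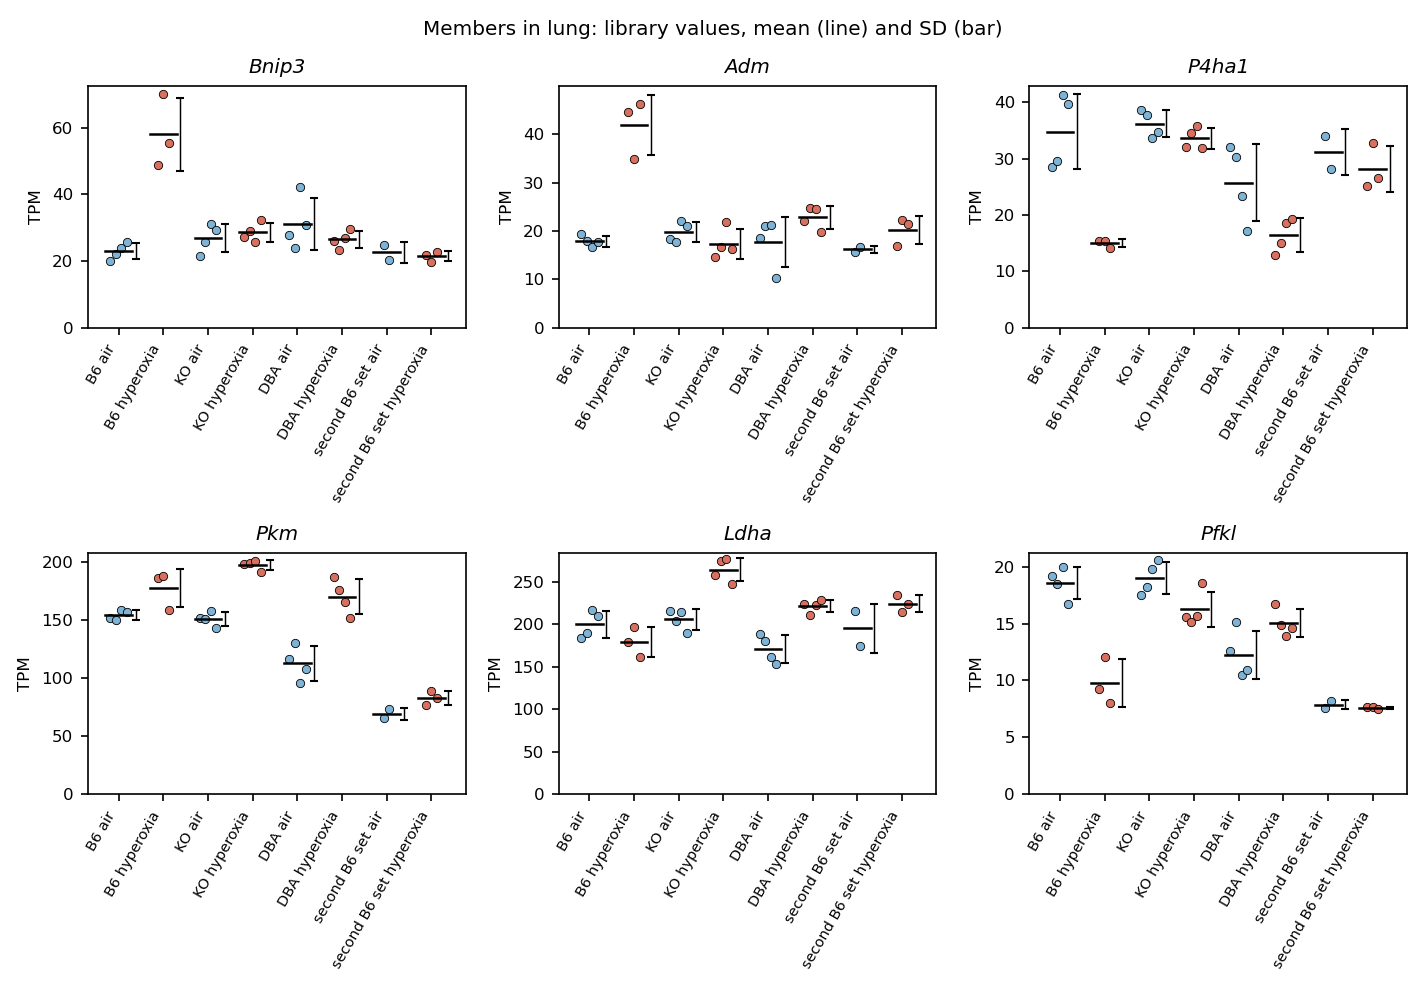
TPM of 6 members in each lung library (points; blue, room air, and red, hyperoxia) with group mean (line) and SD (bar), for B6, KO, DBA and the second B6 set. Bnip3 and Adm are raised in the hyperoxia lungs of the first B6 set, to 48.7 to 69.9 and 34.9 to 46.2 TPM, while Ldha rises in KO and DBA lungs.

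**Figure D5:**
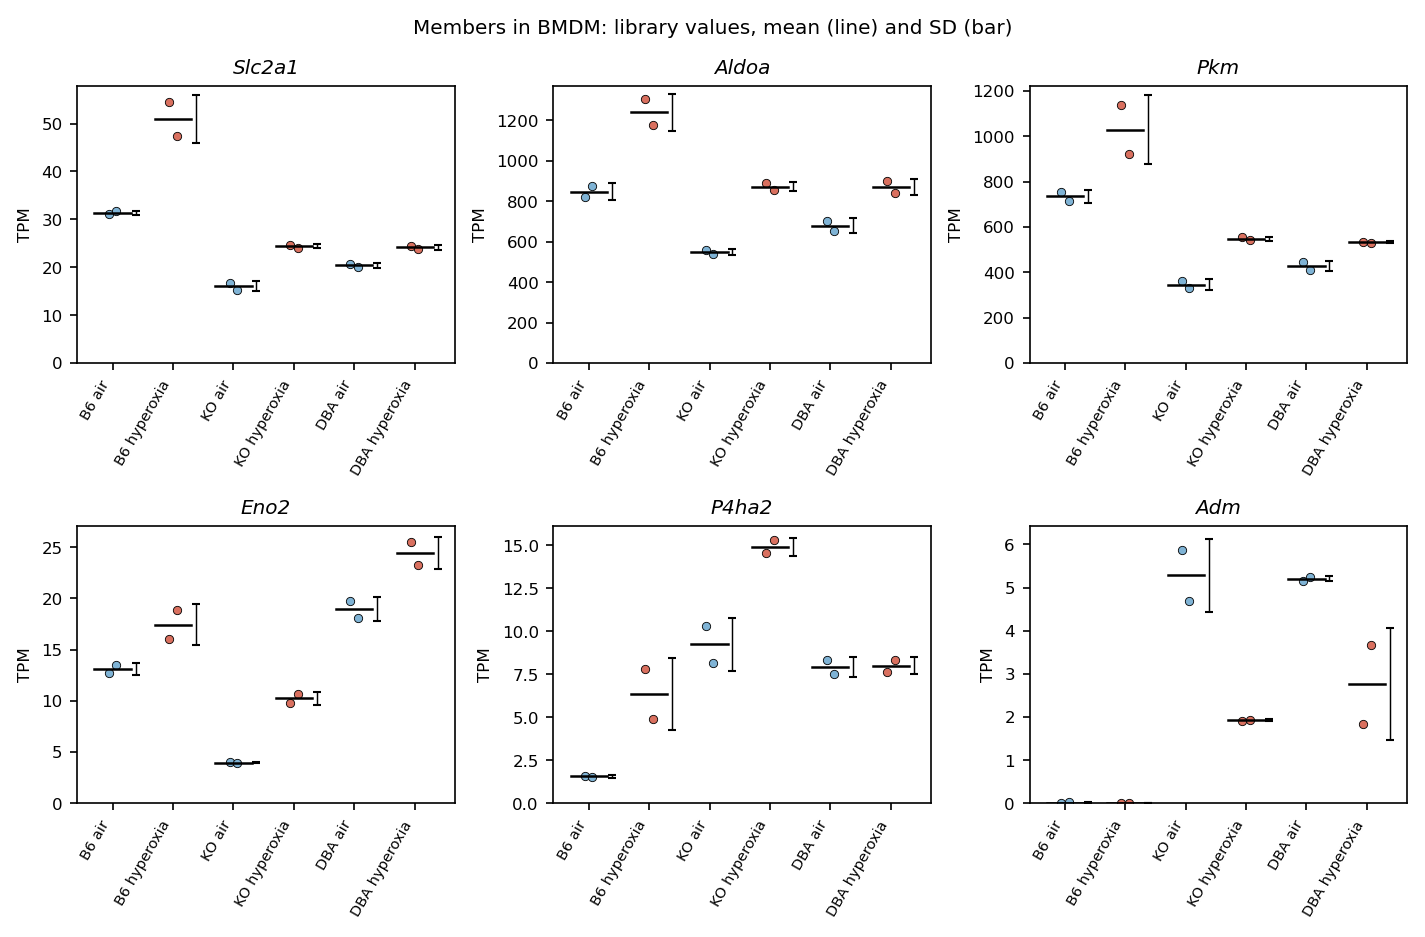
TPM of 6 members in each BMDM library (points; blue, room air, and red, hyperoxia) with group mean (line) and SD (bar). Aldoa and Pkm rise in every genotype, and Adm is near 0 in B6 and falls from 4.68 to 5.88 TPM in KO.

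Both B6 lung sets were exposed in the same way per the labels. In the first set 16 members were called, where 42.7% of all genes tested were, and in the second 1, where 4.94% were. No member was called in both, and with these counts at most 1 could have been. Of the 37 members tested in both, 20 had the same sign. Among all genes, 421 were called in both sets, 371 of them in the same direction. The members were counted whether called or not, so their signs cannot be set against this figure. Txnip, Bnip3 and P4ha1 show the gap between the sets most plainly, at 1.43, 1.29 and -1.14 in the first set and -0.59, -0.08 and -0.14 in the second. The sets were tabulated separately and differed in depth and in the erythroid sums given above, and the difference between them was not tested.

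Responses were compared between genotypes by limma's interaction tests. In lung, 16 of 38 members responded differently in KO than in B6, 8 more positively and 8 more negatively, where 16.4% and 8.98% of all genes did so (25.3% in all). In DBA 15 did, 8 and 7, against 20% and 9.2% (29.2% in all). With quantile normalization the splits were 6 and 9 in KO and 5 and 9 in DBA. In BMDM 1 member differed in KO (Eno2, higher; with quantile normalization 1 higher and 1 lower), against 0.657% higher and 0.795% lower of all genes (1.45% in all), and 3 in DBA (P4ha2, Txnip and Arrdc4, all lower), against 0.422% and 0.552% (0.974% in all). The lung tests share their B6 libraries, as the BMDM tests do. All B6 hyperoxia lungs carry a date code that no KO or DBA lung carries, so genotype and date code cannot be told apart. In BMDM the B6 libraries also carry a date code of their own. In the second B6 set, outside these tests, mean Txnip went from 402 to 270 TPM and mean Pfkfb3 from 21.2 to 17.0 TPM, while both rose in the first. Mean Pdk1 and Adm rose in both sets, in the second from 10.8 to 13.3 and from 16.2 to 20.2 TPM.

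In room air, no member differed between KO and B6 lungs in limma, with 4 at an unadjusted p under 0.05, where 0.0769% of all genes were called, 0.0512% higher and 0.0256% lower. Between DBA and B6 room-air lungs 16 members were lower and 6 higher, against 34.8% and 21.5% of all genes (56.4% in all), and with quantile normalization 10 were lower and 8 higher. Eno1 was lowest relative to B6 (log2FC -1.10, adjusted p = 2.7e-07), at 18.7 to 24.6 TPM against 44.6 to 48.5 TPM, and Eno2 highest (1.07). Hif1a was at 27.9 to 32.7 TPM in DBA and 49.2 to 53.02 TPM in B6 (log2FC -0.72, adjusted p = 7.18e-06). Macrophage marker sums were 689 to 1108 TPM in these DBA lungs and 2633 to 5184 TPM in B6. Alveolar type 2 marker sums were 7202 to 12087 TPM in DBA and 20629 to 31830 TPM in B6. The part of these cells in the differences was not tested. No date code holds both DBA and B6 lungs, so strain and date code cannot be told apart. The KO and DBA lungs were all male, while the B6 room-air lungs were of both sexes.

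In room-air BMDM the genotypes differed widely. In KO 15 members were lower and 11 higher than in B6, and in DBA 15 and 15, where 15.3% and 33.9% of all genes were lower and higher in KO and 16.2% and 40.7% in DBA (49.1% and 56.8% in all). The median log2FC of all genes was 0.14 in KO and 0.19 in DBA. With quantile normalization 16 members were lower and 7 higher in KO, and 13 and 10 in DBA. The later glycolytic enzymes were lower in 9 of 10 cases in KO and 8 of 10 in DBA, where Aldoa went from -0.32 to 0.02 with quantile normalization, with Pkm at 329 to 444 TPM in KO and DBA against 715 and 754 TPM in B6. Aldoc was at 14.4 and 20.9 TPM in B6, 4.81 and 6.29 TPM in KO and 1.04 and 1.54 TPM in DBA. Hif1a (log2FC 0.97 and 1.01), P4ha2 (1.99 and 1.80) and Adm (2.63 and 2.62) were higher in KO and DBA. Fibroblast marker sums were 75.2 to 108 TPM in these KO and DBA cultures against 0.43 to 0.64 TPM in B6, and proliferation markers were at 18.1 to 25.5 TPM against 75.1 to 113 TPM. The B6 BMDM carry one date code and those of KO and DBA another, so genotype and date code cannot be told apart.

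Other genes of the same pathways were taken from fixed lists, naming at most the 4 largest called changes of a list in a comparison. Of 41 further glycolysis, pentose phosphate and pyruvate genes, 13 of 36 tested rose and 6 fell in B6 lungs (16.6% and 26% of all genes), 10 and 2 in KO lungs (10.6% and 9.11%), 9 and 3 of 35 in DBA lungs (18.6% and 12.4%), and 1 and 0 in the second B6 set (3.13% and 1.81%). Ldhb, the lactate dehydrogenase subunit favoured by oxidative tissues, rose in B6 lungs, from a mean of 54.2 to 109 TPM (log2FC 1.00), and rose in KO lungs (0.94) and in the second B6 set (0.90), with no call in DBA lungs (0.12). Pdk4, another pyruvate dehydrogenase kinase gene, rose in B6 lungs from a mean of 4.55 to 33.3 TPM (log2FC 2.65, adjusted p = 3.59e-06 in limma). It fell in KO (-1.12) and DBA lungs (-0.91). In the second B6 set Pdk4 was lower in hyperoxia without a call, at 8.70 and 10.1 TPM against 4.36, 5.83 and 6.24 TPM. In BMDM the pentose phosphate genes Taldo1 and Pgd rose in all genotypes, with log2FC of 1.03, 1.14 and 0.91 for Taldo1 and 0.92, 1.03 and 0.91 for Pgd in B6, KO and DBA. The glucose transporter gene Slc2a6 fell in all (-0.95, -1.01 and -0.81).

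Of 50 further HIF system and target genes, 48 were in the tables. In B6 lungs 18 of 47 tested rose and 16 fell (16.6% and 26% of all genes), and in KO lungs 8 and 9 (10.6% and 9.11%). In DBA lungs 9 and 7 did so (18.6% and 12.4%), and in the second B6 set 3 and 2 of 46 (3.13% and 1.81%). Pgf, a placental growth factor of the VEGF family, rose in all 4 lung comparisons (log2FC 1.24, 1.15, 0.75 and 0.90). Hif3a, an inhibitory HIF subunit, rose in B6 lungs (1.59) and fell in KO and DBA lungs (-1.03 and -0.93). In the second B6 set its groups overlapped, at 3.27 and 5.85 TPM in room air and 1.77 to 3.28 TPM in hyperoxia. Ddit4, a stress-induced inhibitor of growth signalling, rose in B6 lungs from a mean of 15.1 to 46.8 TPM. In BMDM 7 rose and 3 fell in B6, 5 and 9 in KO, and 4 and 6 in DBA, of 39 tested, where 5.68% and 22.8%, 6.88% and 16.4%, and 5.73% and 13% of all genes rose and fell. Angptl4, a lipoprotein lipase inhibitor, fell in B6 BMDM from a mean of 11.8 to 3.32 TPM (log2FC -1.57), and Lox, a collagen cross-linking enzyme gene that fibroblasts express strongly, fell in KO and DBA BMDM (-1.46 and -1.04).

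The p53 peak lists, which the authors called on pooled replicates, placed few peaks near the members. Within 10 kb of a member's start site there was none in the 6 lung lists, where 0.225% to 0.405% of all genes had one. In the list of B6 room-air BMDM 2 of 38 had one, against 6.31% of all genes. The peak at Pdk1 (chr2:71873080-71873280) was centred 44 bases before the start site, and that at Txnip (chr3:96564767-96564967) lay 6.91 kb beyond it. The list of KO hyperoxia BMDM had peaks near Aldoa (chr7:126790573-126790773) and Arrdc4 (chr7:68755903-68756103), 2 of 38 against 1.84% of all genes. B6 hyperoxia BMDM and KO room-air BMDM had none, against 4.74% and 1.45%. Lists of different lengths, here 1263 to 4107 peaks in BMDM, show no change in binding.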

How the data were processed

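The deposited expression tables give TPM per gene and library, which the authors made from reads aligned to mm10; STAR, HOMER and Bowtie2 are named in the submitters' processing notes, without versions. The deposited p53 peak lists give a score per peak, called by HOMER on pooled tags at a false discovery rate of 0.001 and at least 4-fold over input, per the file headers. KO BMDM peaks were called against B6 input, per the file headers. TPM sums over listed genes were 529199 to 605692, so not all transcripts are listed. Reads per library were estimated from the steps of TPM times length, which came out whole (tolerance 0.15) for 100% of values. All expression columns were matched to a group by their names.

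Fits used limma (3.58.1, R 4.3.3), 1 per table, on log2(TPM + 1), with 1 mean per group, all groups of the table and a variance trend. A gene was tested if it reached 1 TPM in at least n libraries, n being the size of the smallest group (15614 and 15623 in the lung tables, 14636 in the second B6 set, 12320 in BMDM), with Benjamini-Hochberg adjustment over all of them, in 15 comparisons. The fit was tested on simulated data. Pfkm, Slc16a3 and P4ha2 are listed with different transcripts among the tables, so their levels are not compared across tables.

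The members, lists and tests were chosen with earlier results of these data known. Any member could be named, and of the other lists the 4 largest called changes per comparison. Alternatives were quantile normalization, a pseudocount of 0.1, no filter, only the groups compared, each library left out, date code as a term, males only and a replicate block. Single date codes and a minimum absolute log2FC of 0.5 were added after seeing the data. Promoters are RefSeq's for GRCm38.p6 (mm10), and 34 of 38 members matched (Ero1l as Ero1a). Peaks were assigned within 10 kb of start sites, with 1 kb and 50 kb as alternatives.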

Additional observations from a re-analysis of the deposited data

Results flagged for a closer look

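In 9 of 190 combinations of a member and a lung group of 4, 1 library stood far from the other 3, and chance marks about 1 in 20. In DBA room-air library 4, Slc2a3 was at 6.20 TPM (others 3.43 to 3.89), Pfkm at 16.3 TPM (others 11.2 to 12.0), Slc16a3 at 6.16 TPM (others 3.64 to 3.90) and Arrdc4 at 22.3 TPM (others 13.0 to 14.6). In DBA hyperoxia library 1, Hk2 was at 5.29 TPM (others 2.97 to 3.20). In KO hyperoxia library 4, Pfkl was at 18.6 TPM (others 15.2 to 15.7) and Car9 at 2.06 TPM (others 1.15 to 1.25). In KO room-air library 4, Slc16a3 was at 2.10 TPM (others 3.21 to 3.38), and in B6 room-air library 1, Egln3 was at 3.91 TPM (others 1.58 to 1.90).

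Responses to hyperoxia that differed between genotypes in limma's interaction test are given as differences in log2FC. In KO relative to B6 lungs they were more positive for P4ha1 (1.04), Ankrd37 (0.76), Pfkl (0.66), Tpi1 (0.58), Eno1 (0.57), Ldha (0.52), Ero1l (0.37) and Hif1a (0.31). They were more negative for Txnip (-2.21), Adm (-1.37), Bnip3 (-1.19), Epas1 (-0.76), Pfkfb3 (-0.70), Arrdc4 (-0.69), Pdk1 (-0.63) and Bnip3l (-0.60). In DBA relative to B6 lungs they were more positive for Pfkl (1.16), Eno1 (0.82), Tpi1 (0.63), Pfkm (0.57), Ldha (0.54), Pkm (0.40), Hif1a (0.35) and Vhl (0.34). They were more negative for Txnip (-1.80), Bnip3 (-1.49), Pfkfb3 (-0.89), P4ha2 (-0.87), Adm (-0.79), Ndrg1 (-0.76) and Pdk1 (-0.57). Both sets of tests use the same B6 lungs, whose hyperoxia libraries carry a date code that no KO or DBA lung carries. In BMDM the response of Eno2 differed by 0.79 between KO and B6, and those of P4ha2, Arrdc4 and Txnip by -1.48, -1.08 and -0.94 between DBA and B6.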

How the results depend on the processing

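Of 7245 values of single members under alternatives, 6643 kept their side of the threshold, 463 lost a call, 138 gained one and 1 changed sign, which was Aldoa in room-air BMDM of DBA against B6 (0.0196 with quantile normalization). The causes were not tested. Requiring an absolute log2FC of 0.5 left 5 higher and 3 lower in B6 lung, 1 and 2 in KO lung, 1 and 2 in DBA lung, 0 and 0 in the second set, 5 and 2 in B6 BMDM, 7 and 3 in KO BMDM, and 0 and 4 in DBA BMDM. With date code as a term, KO lung had 5 higher and 5 lower. No date code holds both DBA and B6 lungs, so that term cannot adjust room-air DBA against B6 lungs. The 7245 values include this setting. Within the later KO date code, KO lung had 4 and 5. With males only, B6 lung had 7 higher, 9 responses differed in DBA lung and 14 members differed in room-air DBA lung. Without a filter, the second set had 0 higher and DBA BMDM 0 differing responses. With only the groups compared, B6 BMDM had 3 higher and 2 lower, and the differing BMDM responses were 0 in KO and 0 in DBA, as with a pseudocount of 0.1 (0 and 0). With quantile normalization, 2 were lower in B6 BMDM, 5 higher in DBA BMDM and 2 responses differed in KO BMDM.

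Leaving out 1 library gave 6 to 11 higher and 3 to 6 lower in B6 lung, 5 to 10 and 3 to 4 in KO lung, 4 to 8 and 2 to 6 in DBA lung, and 0 to 0 and 0 to 1 in the second set. In BMDM it gave 5 to 14 and 3 to 5 in B6, 5 to 7 and 4 to 4 in KO, and 0 to 2 and 4 to 5 in DBA. Differing responses numbered 14 to 17 (KO lung), 10 to 16 (DBA lung), 0 to 4 (KO BMDM) and 0 to 7 (DBA BMDM). Room-air differences numbered 0 to 0 (KO lung), 15 to 21 (DBA lung), 20 to 23 (KO BMDM) and 25 to 29 (DBA BMDM). Beside the BMDM libraries named in the report, counts moved by over 1.5 times without B6 hyperoxia lung library 1 (7 higher), 2 (6 higher) or 3 (3 lower), KO room-air lung library 4 (5 higher), DBA room-air lung library 1 (2 lower), second-set hyperoxia library 3 (1 lower) and any second-set library (0 higher). Without B6 hyperoxia BMDM library 2, 4 responses differed in KO and 7 in DBA, and without B6 room-air or hyperoxia library 1, DBA room-air library 1 or any KO or DBA hyperoxia library the number was 0, as it was for KO without either KO room-air library. Where this left 1 library in a group, it was assumed to vary like the others.

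Replicate numbers of KO and DBA BMDM and of the second set are only numbers, and deviations of same-numbered libraries correlated at -0.05 in KO and 0.08 in DBA BMDM. B6 BMDM columns all carry number 1 and were matched by the mark MF or F in their names, which both gases share, with a correlation of 0.38; that the matched cultures share animals is not stated. With a replicate block, DBA BMDM had 6 higher and 11 lower, the second set 0 and 1, and differing BMDM responses were 3 in KO and 10 in DBA. No paired analysis was possible for the main lungs because their column numbers restart within date codes.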
